A study of Mus musculus with 36 samples.

Results

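Mouse chromosome 12 carries the immunoglobulin heavy chain genes at its distal end, long gene-poor blocks in its middle, and clusters of genes for serpins and for the imprinted Dlk1-Dio3 locus. Its replication timing (RT) was described here from 3 maps of RT domains, one for CH12 cells infected with the control shRNA (shLacZ), one for WT primary B cells and one for mouse embryonic fibroblasts (MEFs). All domains on the chromosome were taken, 125 in the CH12 map, 115 in the primary B map and 119 in the MEF map, which is 359 of the 7437 domains of the series. The chromosome was chosen by a measured value, since its difference in early share between the 2 B cell maps was the smallest of the 19 autosomes. That difference is therefore given below as a description only.

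The series holds 36 Repli-seq libraries in 7 groups, and the maps of both B cell types rest on 4 libraries each, from early and late S phase fractions with 2 replicates. CH12 is a mouse B cell lymphoma line, a single tumour-derived line, whose shLacZ cells had intact Rif1, were infected with a lentivirus for an shRNA against LacZ, were selected with puromycin and were cultured with IL4/CD40/TGF beta. The WT primary B cells were activated splenic B cells with intact Rif1. Their labels repeat the CH12 culture text and give no age, strain or number of pooled animals. The MEF map is named WT, is tied to no sample of the series, and was credited in the study's list of datasets to an earlier public dataset. Replicates were merged before the domains were called, so each cell type had 1 map. No replicate error could be given and no difference between maps was tested. Wilson 95% intervals cover counting only, and neighbouring bins are not independent.

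Replication timing is the order in which parts of the genome are copied during S phase. Early-replicating DNA is, in most cell types, rich in genes and in GC and lies in open chromatin, whereas late-replicating DNA is gene-poor and often lies at the nuclear periphery. Domains that switch between early and late during development often hold genes of the lineage concerned. In the maps, every 20 kb bin had an early (E), middle (M) or late (L) state. On this chromosome, protein-coding gene starts fell in the order of these names, with E at 13.1 starts per Mb, M at 7.25 and L at 1.80 in CH12 cells. The primary B map had 13.1, 6 and 1.43 starts per Mb, and the MEF map 13.2, 5.42 and 1.13. GC content followed the same order, and in primary B cells E bins had 44.6% GC, M bins 42.5% and L bins 39.3%.

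To show the DNA behind the states, the promoters of 7 genes are printed, from 250 bases before the annotated start to 50 after it, each on its own strand of mm9. For E in all maps, for L in all maps and for each kind of difference between the B cell maps, the gene taken was the listed protein-coding gene farthest from any domain edge. The capitals mark CG pairs, the letters C and G in a row, which read the same on both strands and overlap no other motif counted here. Of the 704 protein-coding promoters on the chromosome, 98.7% held at least 1 CG pair, against 95.1% of 22350 on all chromosomes.

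Prox2, a homeobox gene in E in all maps, lies at chr12:86447332-86447631 on the minus strand. Lrfn5, for a synaptic adhesion protein, was L in all maps (chr12:62623887-62624186, plus strand). Mnat1, for the assembly factor of the CDK-activating kinase, was E in CH12, M in primary B cells and E in MEFs (chr12:74224454-74224753, plus strand). Adam6b, a gene of the ADAM family within the span of the heavy chain D genes, was M in CH12, E in primary B cells and M in MEFs (chr12:114727506-114727805, plus strand). Etv1, for an ETS transcription factor, was M in CH12 cells but L in both other maps (chr12:39505717-39506016, plus strand). Hdac9, for a histone deacetylase, was L in CH12, E in primary B cells and M in MEFs (chr12:35213705-35214004, minus strand). Rsad2, for the antiviral protein viperin, was L in CH12 cells but M in both other maps (chr12:27141268-27141567, minus strand).
Prox2: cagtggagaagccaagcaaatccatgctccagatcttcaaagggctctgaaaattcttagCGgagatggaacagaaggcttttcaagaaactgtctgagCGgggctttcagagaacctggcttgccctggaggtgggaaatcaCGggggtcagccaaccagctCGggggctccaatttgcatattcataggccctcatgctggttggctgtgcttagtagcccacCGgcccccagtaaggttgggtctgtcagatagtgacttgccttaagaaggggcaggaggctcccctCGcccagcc
Lrfn5: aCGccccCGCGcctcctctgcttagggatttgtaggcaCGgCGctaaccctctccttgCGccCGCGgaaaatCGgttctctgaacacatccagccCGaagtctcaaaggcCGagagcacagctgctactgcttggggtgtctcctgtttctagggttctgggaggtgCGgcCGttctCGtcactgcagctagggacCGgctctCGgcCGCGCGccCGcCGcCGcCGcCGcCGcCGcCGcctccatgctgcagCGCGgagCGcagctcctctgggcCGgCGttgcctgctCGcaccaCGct
Mnat1: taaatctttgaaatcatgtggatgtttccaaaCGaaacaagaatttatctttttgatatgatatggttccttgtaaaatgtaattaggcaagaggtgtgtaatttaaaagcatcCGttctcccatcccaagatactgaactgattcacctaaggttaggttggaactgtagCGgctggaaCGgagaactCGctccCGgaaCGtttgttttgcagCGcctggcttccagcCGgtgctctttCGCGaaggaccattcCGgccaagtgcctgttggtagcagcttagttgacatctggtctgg
Adam6b: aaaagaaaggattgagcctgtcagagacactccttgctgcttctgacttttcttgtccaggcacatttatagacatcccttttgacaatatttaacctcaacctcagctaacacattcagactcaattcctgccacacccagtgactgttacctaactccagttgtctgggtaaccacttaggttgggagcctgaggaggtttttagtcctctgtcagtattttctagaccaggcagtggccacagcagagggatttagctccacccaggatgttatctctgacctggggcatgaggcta
Etv1: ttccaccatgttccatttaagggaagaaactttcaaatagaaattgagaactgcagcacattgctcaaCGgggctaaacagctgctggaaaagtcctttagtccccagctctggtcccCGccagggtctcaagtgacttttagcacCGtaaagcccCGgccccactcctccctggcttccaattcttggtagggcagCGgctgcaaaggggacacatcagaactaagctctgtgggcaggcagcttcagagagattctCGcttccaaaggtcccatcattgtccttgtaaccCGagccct
Hdac9: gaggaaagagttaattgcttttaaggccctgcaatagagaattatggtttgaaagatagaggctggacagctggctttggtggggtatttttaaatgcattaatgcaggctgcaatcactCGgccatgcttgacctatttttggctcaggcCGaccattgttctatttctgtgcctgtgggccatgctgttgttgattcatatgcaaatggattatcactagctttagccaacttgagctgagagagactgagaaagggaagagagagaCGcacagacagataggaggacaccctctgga
Rsad2: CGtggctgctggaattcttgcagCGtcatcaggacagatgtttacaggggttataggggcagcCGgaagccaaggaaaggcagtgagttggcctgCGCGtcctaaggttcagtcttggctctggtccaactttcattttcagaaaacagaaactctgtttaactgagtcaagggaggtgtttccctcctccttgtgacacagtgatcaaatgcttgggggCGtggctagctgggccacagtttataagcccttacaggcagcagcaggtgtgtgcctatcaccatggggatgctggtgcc

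The 7 windows differed widely in CG content. Lrfn5, 1744 kb inside late DNA, had 34 CG pairs and an observed over expected CpG ratio of 0.99. Prox2, 1153 kb inside early DNA, had 6 CG pairs and a ratio of 0.26. The Mnat1 window had 12 pairs, Etv1 7, Rsad2 6, Hdac9 3 and Adam6b 0. Single genes thus did not follow the share by state given further below.

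Across the 5913 bins with a state in all 3 maps, early DNA took nearly the same share of the chromosome in each, and late DNA did not. E bins made up 23.1% in CH12 cells (22.0 to 24.1%), 24.6% in primary B cells (23.6 to 25.8%) and 24.9% in MEFs (23.9 to 26.1%). L bins made up 51.7% in CH12 cells (50.4 to 53.0%), 39.6% in primary B cells (38.3 to 40.8%) and 35.9% in MEFs (34.7 to 37.1%). M bins filled the rest, with 25.2%, 35.8% and 39.2%. The domain maps hold no RT values, so the names E, M and L were checked by gene density and GC content alone, and the RT value at which a state begins can differ between maps. The study's text describes relatively fewer early and more mid-replicating domains in WT primary B than in shLacZ CH12 cells. It refers there to histograms of RT values over genomic bins, not to the states of this chromosome. The M shares given here went in the described direction, but the M domain counts (63 in CH12 and 58 in primary B cells) did not. The E shares and E domain counts given here went in the opposite direction. Without RT values, this difference could not be settled from the maps. The lower L share of primary B cells and MEFs on this chromosome went with a higher M share more than with a higher E share. Between the B cell maps this follows from the choice of the chromosome by its small E difference, so nothing is read from it.

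**Figure D1:**
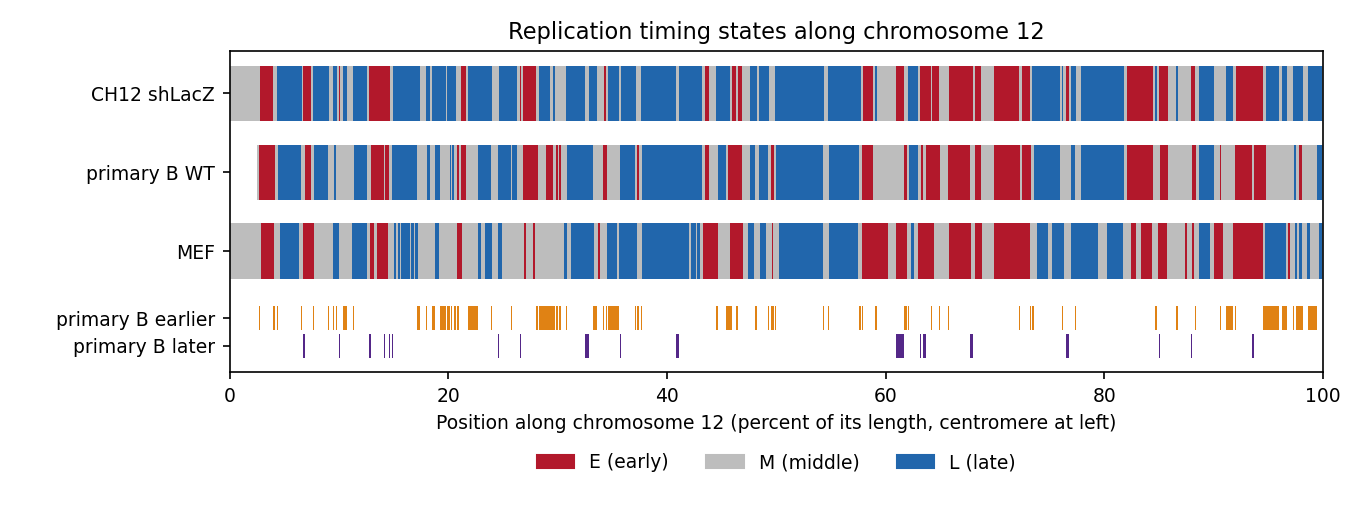
RT states along chromosome 12 in the 3 maps (red E, grey M, blue L), with the position in percent of the chromosome's length from the centromere; the lower rows mark bins in which the primary B map was in an earlier (orange) or later (purple) state than the CH12 map. Long L blocks in the middle lay at the same place in all maps, and the broadest stretch of earlier states in primary B cells lay near the distal end, where the heavy chain genes are.

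The E difference between primary B and CH12 cells was 1.59 percentage points, with chromosome 17 next at 1.89 points, a median of 4.72 points over the 19 autosomes and a highest value of 11.9 points on chromosome 19. It was the balance of a gain and a smaller loss. Bins that were E only in primary B cells, of the 2 B cell maps, made up 4.40% of the chromosome, the lowest gain of any autosome (median 7.28%). Bins that were E only in CH12 cells made up 2.81%, a loss above the autosomal median of 2.39%. The gain and the loss are the parts of the value used for the choice, so nothing is read from their places among autosomes. When bins within 100 kb of an edge in either map were left out, the difference turned to -0.17 points over 4079 bins, and chromosome 12 was the only autosome below 0. That is the value of the choice over fewer bins, and is likewise a description only. The E share in MEFs was the lowest of the autosomes, and its difference from CH12 cells, 1.89 points, was also the lowest of the 19. That difference takes in the CH12 E share, which also enters the value used for the choice, so its place is not a separate result. In the L state the chromosome stood among the others, with a change of -12.1 points from CH12 to primary B cells against an autosomal median of -11.0 points.

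**Figure D2:**
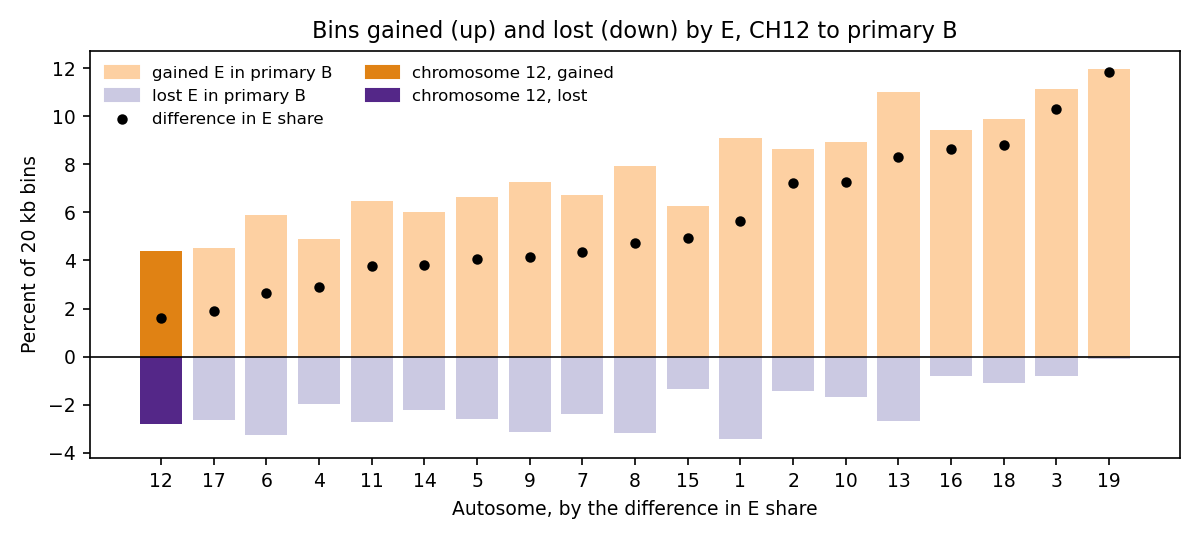
Percent of 20 kb bins on each autosome that were E in primary B but not in CH12 cells (bars upward) or E in CH12 but not in primary B cells (bars downward), with the difference in E share as black points and autosomes ordered by it. Chromosome 12, in dark bars, had a gain of 4.40% and a loss of 2.81%.

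The B cell maps gave the same state to 79.4% of the bins (78.3 to 80.4%, Cohen's kappa 0.68). The CH12 and MEF maps did so for 67.7% (66.5 to 68.9%, kappa 0.51), and the primary B and MEF maps for 71.6% (70.4 to 72.7%, kappa 0.57). Of 1220 bins that differed between the B cell maps, 992 had the earlier state in the primary B map, 16.8% of the chromosome against 20.3% of bins over all chromosomes. The other 228 had the later state there, 3.86% against 3.62% over all chromosomes. Nothing is read from these shares, since the choice of the chromosome used the E states of the same pair of maps. MEFs were in an earlier state than CH12 cells in 24.7% of bins (31.1% over all chromosomes) and in a later state in 7.56% (6.04%). Relative to primary B cells, MEFs were earlier in 16.3% of bins (20.7%) and later in 12.1% (10.7%).

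Most of the change between the B cell maps passed between L and M. This balance is a description only, since the chromosome was chosen for its small E difference. From CH12 to primary B cells, 732 bins went from L to M, 212 from M to E and 48 from L to E. In the other direction, 166 went from E to M, 62 from M to L and 0 from E to L. Of CH12 E bins, 87.8% stayed E in primary B cells, and of CH12 L bins, 74.5% stayed L. In reverse, 97.4% of the primary B L bins were already L in CH12 cells, so the late DNA of primary B cells lay almost wholly inside that of CH12 cells. All 27 L domains of primary B cells were L in CH12 cells over at least 50% of their bins, and 18 of them over every bin.

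Over all 3 maps, 59.9% of bins kept a single state (58.6 to 61.1%), against 55.0% over all chromosomes. These were 1705 bins in L, 999 in E and 838 in M. The next most frequent patterns were L in both B cell maps and M in MEFs (571 bins), L in CH12 cells and M in the others (477 bins), M in both B cell maps and E in MEFs (261 bins), and L, M and L in CH12, primary B and MEFs (226 bins). E in both B cell maps and M in MEFs took 198 bins, among them the bin with the start of Id2, next to a domain edge of MEFs. Opposite states between the B cell maps on one side and MEFs on the other were almost absent, with 2 bins that were L in both B cell maps and E in MEFs, and 0 that were E in both and L in MEFs. The first of these patterns took 0.034% of bins here and 0.914% over all chromosomes.

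An M domain lay between every E and L domain, with 0 direct contacts of E with L in any map. CH12 cells had 24 E, 63 M and 38 L domains, primary B cells 30, 58 and 27, and MEFs 25, 60 and 34. The median E domain was 860 kb long in CH12 cells (order-statistic 95% interval 460 to 1380 kb), 690 kb in primary B cells (380 to 1400 kb) and 980 kb in MEFs (460 to 1480 kb), so these intervals overlapped. The median L domain was 1350 kb in CH12 cells (840 to 1700 kb), 1400 kb in primary B cells (520 to 2580 kb) and 730 kb in MEFs (340 to 1320 kb). M domains were the shortest, with medians of 300, 420 and 570 kb. M stretches flanked by E on both sides numbered 7 in CH12 cells, 15 in primary B cells and 12 in MEFs, and those flanked by L on both sides numbered 21, 12 and 21.

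Read from the centromere, the chromosome was a set of gene-rich early blocks set in late DNA. The first 3 Mb are unknown bases. There the CH12 and MEF maps held M and the primary B map held no state, so the longest M domain of CH12 cells (3380 kb) and of MEFs (3460 kb) lay mostly over unknown sequence. The first early block followed, at 3380001 to 4840000 in CH12 cells, with 18 protein-coding gene starts, among them those of Dnmt3a, a de novo DNA methyltransferase, and Pomc, the precursor of pituitary peptide hormones. It reached from 3240001 to 5000000 in primary B cells and from 3460001 to 4960000 in MEFs. The next block of at least 1 Mb, at 15500001 to 17840000 in CH12 cells, held 14 starts, those of Lpin1, a phosphatidate phosphatase, and E2f6, a repressor of the E2F family, among them. Only 94 of its 117 bins were E in primary B cells and 85 in MEFs. An early block at 32600001 to 33980000 in CH12 cells, with Pik3cg, the catalytic subunit of a PI3 kinase of leukocytes, and Nampt, an enzyme of NAD synthesis, was E over all of its 69 bins in primary B cells and over 24 in MEFs.

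The late middle of the chromosome held the longest domains of all. The longest L domain of CH12 cells ran from 60480001 to 65880000 (5400 kb) and had 3 protein-coding starts, Lrfn5, Spanxn4 and Fscb. Of its 270 bins, 260 were L in primary B cells and 246 in MEFs, and those 246 bins, 4920 kb, formed the longest run of L in all maps. The longest L domain of primary B cells ran from 45780001 to 52340000 (6560 kb) and that of MEFs from 45720001 to 50940000 (5220 kb). The first held 7 starts, among them those of Stxbp6 and Nova1, both neuronal genes. In CH12 cells, 310 of the 328 bins of this primary B domain were L and 18 were M.

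The early blocks with most genes lay in the distal part. The longest run of E in all maps, 2800 kb at 84800001 to 87600000, was a single CH12 E domain with 56 protein-coding starts. They include those of Dcaf4, Zfyve1, Rbm25, Papln and Numb, an inhibitor of Notch, and of the AP-1 genes Fos, Jdp2 and Batf. Its edges moved by at most 40 kb in primary B cells (84780001 to 87640000), while in MEFs the domain ran on to 88800000, to a length of 4020 kb with 77 starts. A further E run in all maps, 2340 kb at 79820001 to 82160000, held 29 starts, among them that of Eif2s1, a translation initiation factor. The longest E domain of CH12 cells, 3060 kb at 111560001 to 114620000, held 64 starts, with Dync1h1, a dynein heavy chain, Hsp90aa1, a chaperone, Traf3, an inhibitor of noncanonical NF-kappaB signalling, and Akt1, a survival kinase. In primary B cells this block began at 111540001, was split by M at 113420001 to 113580000 and reached to 114980000.

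Other early blocks were shared by some maps only. The E domain at 99500001 to 102360000 in CH12 cells (2860 kb, 23 starts) was nearly the same in primary B cells, 99480001 to 102380000, their longest E domain, and was E over 84 of its 143 bins in MEFs, with M over the rest. Primary B cells had an E domain of 1560 kb at 55320001 to 56880000, with Nfkbia, the inhibitor of NF-kappaB, and Psma6, a proteasome subunit, in which CH12 cells had 47 E, 23 M and 8 L bins. MEFs had an E domain of 1660 kb at 52520001 to 54180000, with Strn3, in which CH12 cells had 23 E bins and primary B cells 26 E bins of 83. MEFs also joined 70160001 to 72980000 into a single E domain of 2820 kb, which in CH12 cells was E only up to 71320000. In primary B cells, the longest M domain, 3480 kb at 71360001 to 74840000, followed this point. Around Esr2, an estrogen receptor gene, CH12 cells had an E domain at 76620001 to 77780000, primary B cells at 77220001 to 78780000 and MEFs at 76360001 to 78140000, so the early block had a shared core and different edges. In the early block with Pole2 and Arf6, a small GTPase gene, the E domain ran from 70200001 to 71320000 in CH12 cells and from 70160001 to 71360000 in primary B cells. In the block with Eif2s1, it ran from 79740001 to 82440000 in CH12 cells, from 79700001 to 82160000 in primary B cells and from 79820001 to 82180000 in MEFs. The edges of both blocks in the B cell maps lay within 40 kb of each other, apart from the distal edge of the second. For the blocks with Lpin1 and with Pik3cg, the primary B domains were 15660001 to 17140000 and 32560001 to 34180000, and MEFs had 16360001 to 17600000 at Lpin1.

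MEFs had further E domains of at least 1 Mb. They were E from 55500001 to 56980000, where primary B cells were E over 69 of 74 bins and CH12 cells over 47. They were E from 73920001 to 75180000, with Six6, Six4 and Hif1a, where CH12 cells were E over 42 of 63 bins and primary B cells over 13. From 101120001 to 102260000 all 57 bins were E in each map. The distal block of MEFs ran from 111260001 to 114600000, with 152 of its 167 bins E in CH12 cells and 145 in primary B cells. MEFs also had an E domain of 1200 kb at 8160001 to 9360000, with Gdf7 and Sdc1 (syndecan, a plasma cell surface marker), which was E over 41 of its 60 bins in CH12 cells and over 36 in primary B cells.

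A number of E domains had no E bin at the same place in another map. Of the 24 E domains of CH12 cells, 20 were E over at least 50% of their bins in primary B cells and 4 had no E bin there, the longest being 900 kb. Of the 30 E domains of primary B cells, 9 had no E bin in CH12 cells. They included a 740 kb domain with the starts of Hdac9, Prps1l1 and Snx13, and a 280 kb domain with that of Ahr, the receptor for aryl hydrocarbons. Also among them were a 240 kb domain with the starts of Grhl1, Klf11, Cys1 and Rrm2 and a 260 kb domain with that of Hif1a, the oxygen-regulated transcription factor. A 320 kb domain held the start of Rapgef5. The domains with the starts of Hdac9, Ahr and Rapgef5 had no E bin in MEFs either. Of the 25 E domains of MEFs, 5 had no E bin in CH12 cells, the longest being 940 kb at 109180001 to 110120000, which begins with Bcl11b, a T cell and neuronal transcription factor, and Setd3, a histidine methyltransferase. Several of these domains were shorter than the 300 kb smoothing span of the RT values.

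Edges were less alike than the domains. Within 100 kb, 26 of 48 E edges of CH12 cells had an E edge of primary B cells (54.2%, Wilson 95% interval 40.3 to 67.4%), which was 43.3% of the 60 E edges of primary B cells. Of 76 L edges of CH12 cells, 26 were matched in primary B cells (34.2%, 24.5 to 45.4%). In MEFs, 16 of the CH12 E edges were found (33.3%, 21.7 to 47.5%), and 10 of the 48 had a partner in both other maps. The median distance from a CH12 E edge to the nearest one in primary B cells was 100 kb.

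By 10 Mb segment the differences between the B cell maps were uneven and partly opposite in sign. Segment 9 had the highest E share, 69.0% in CH12 cells, 66.2% in primary B cells and 69.4% in MEFs, and 137 protein-coding starts. Segment 7 had 0%, 2.80% and 1.60%, with 23 starts, segment 10 had 8.8%, 5.2% and 0.6%, with 15 starts, and the short segment 13 had no E bin in any map. The E share rose from CH12 to primary B cells by 13 points in segment 4 and by 6.80 points in segment 6, and it changed by -6 points in segments 2 and 8, so these partly cancelled over the chromosome. The L share changed by -40.4 points in segment 12, from 42.6% to 2.20%, and by -29.2 points in segment 3, from 66.2% to 37.0%. The B cell maps agreed over 94.0% of segment 9, with the highest E share, 92.8% of segment 7, with 89.8% L in CH12 cells, and over 54.4% of segment 12.

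**Figure D3:**
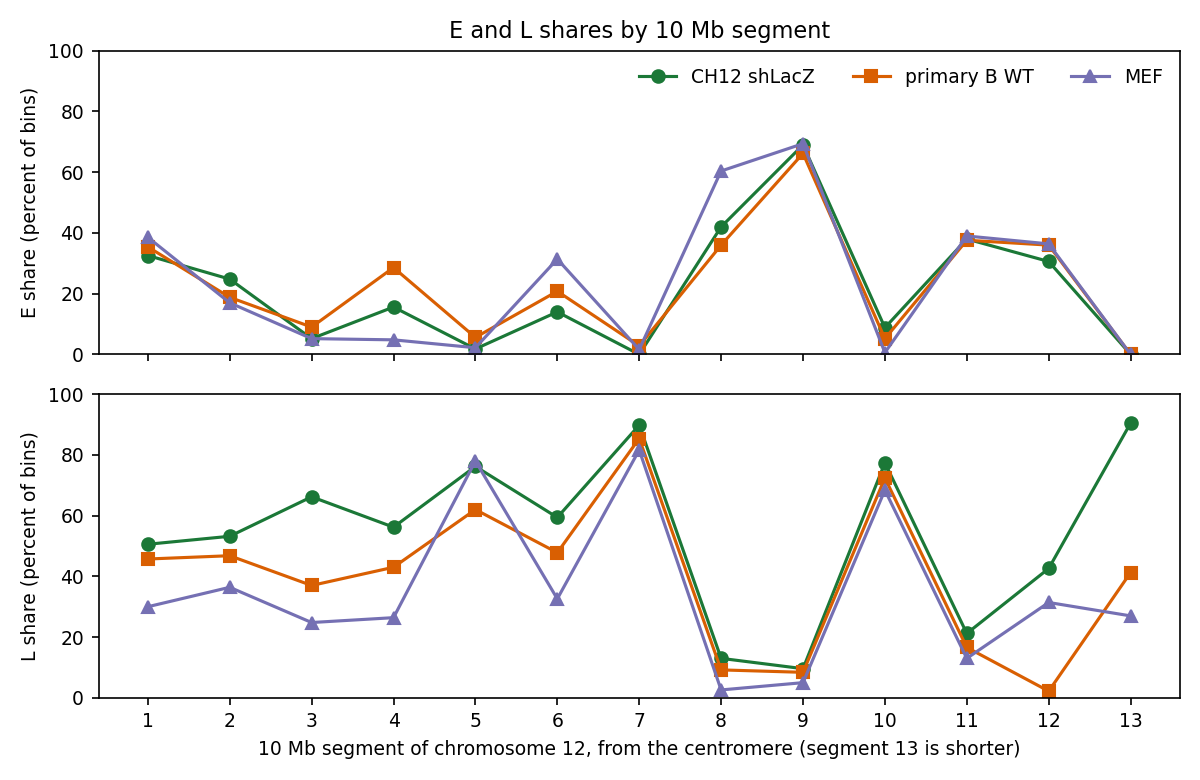
E share (upper plot) and L share (lower plot), in percent of 20 kb bins, in 13 segments of 10 Mb from the centromere, with circles for CH12 cells, squares for primary B cells and triangles for MEFs; the last segment is 63 bins long. E shares of the B cell maps crossed between segments, and the widest gap in L share among full segments was in segment 12 (42.6% against 2.20%).

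The bins that differed between the B cell maps formed 120 runs, of which 20 were at least 300 kb long and held 629 of the 1220 bins. The longest runs from L to M were 1400 kb at 114980001 to 116380000, over heavy chain V genes, 1240 kb at 42000001 to 43240000, around Lrrn3, for a leucine-rich repeat protein of neurons, which includes a stretch of unknown bases, and 1080 kb at 26440001 to 27520000, with Rnf144a, a ubiquitin ligase, and the interferon-induced genes Rsad2 and Cmpk2. MEFs were L over all 70 bins of the first run, L over 50 of 62 bins of the second and M over all 54 bins of the last. Each of these 3 runs was thus M in primary B cells, but the fibroblast state differed among them. The longest runs from M to E were 340 kb at 114620001 to 114960000, over Ighm and the heavy chain D genes, 280 kb with Prps1l1 and Snx13, and 280 kb with Ahr. A further run of 280 kb, at 60060001 to 60340000, held 8 starts, among them those of Sec23a, a subunit of the secretory vesicle coat, and Trappc6b, a subunit of a vesicle tethering complex.

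Direct passages from L to E were few, 4 runs in all. The longest, 460 kb at 35120001 to 35580000, held the start of Hdac9 and was M in MEFs over all 23 bins. It lay beside an 820 kb run from L to M at 34300001 to 35120000 with Ferd3l and Twist1, both bHLH transcription factors, and beside the 280 kb run from M to E with Prps1l1 and Snx13, so the region from Twist1 to Snx13 was earlier in primary B cells without a break. The next was 320 kb at 118560001 to 118880000 with Rapgef5, an exchange factor for Rap proteins, and was L in MEFs over 13 of 16 bins. The third was 160 kb at 55320001 to 55480000 with no protein-coding start.

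Runs in which primary B cells were later were led by a locus with the homeobox genes Six6 and Six4. The longest run from E to M, 900 kb at 73860001 to 74760000, held 11 starts, among them those of Ppm1a, a phosphatase, Six6, Six4 and Mnat1. It made up a whole CH12 E domain, and MEFs were E over 42 of its 45 bins. The next, 380 kb at 92740001 to 93120000 with Gtf2a1, a general transcription factor, Ston2 and Sel1l, a factor of protein degradation at the endoplasmic reticulum, was likewise a whole CH12 E domain and was M in MEFs over all 19 bins. Of the runs of 280 kb, 1 held Slc8a3, a sodium-calcium exchanger, and the other had no protein-coding start. The longest runs from M to L were 460 kb at 39420001 to 39880000 with Etv1, 360 kb at 49460001 to 49820000 with Gm1818, and 160 kb with no start, and all bins of these 3 runs were L in MEFs.

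The largest change by length lay over the immunoglobulin heavy chain genes, which encode the heavy chain of antibodies and are assembled in developing B cells by joining V, D and J segments. The annotation held 142 of them, from 114509484 to 117238672, with the constant genes nearest the centromere and the V genes toward the end of the chromosome. The E edge lay 40.9 kb before the start of Ighm, the constant gene of IgM, in CH12 cells, 60.9 kb before it in MEFs and 319 kb beyond it in primary B cells. The edge was thus 360 kb farther toward the V genes in primary B than in CH12 cells. Ighm, all 4 J genes and all 21 D genes were M in CH12 cells and MEFs and E in primary B cells, while the other 4 constant genes, Ighg1 among them, were E in each map.

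Across the V genes the maps differed more widely. Of 112 V genes, 27 were M and 85 L in CH12 cells, 13 were E and 99 M in primary B cells, and 10 were M and 102 L in MEFs. Over the 122 bins from the first to the last V gene (114812453 to 117238672, with 100% known bases), L covered 96 bins in CH12 cells, 0 in primary B cells and 114 in MEFs. In CH12 cells the late stretch was broken by 340 kb of M at 116380001 to 116720000, with Ighv8-6, Ighv1-54 and Ighv1-59, which was L in MEFs. At the far end of the V genes all maps were M, and MEFs had an E domain of 180 kb at 117400001 to 117580000 with Wdr60 and Esyt2. The grouping by annotated segment type was chosen after the values were seen.

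**Figure D4:**
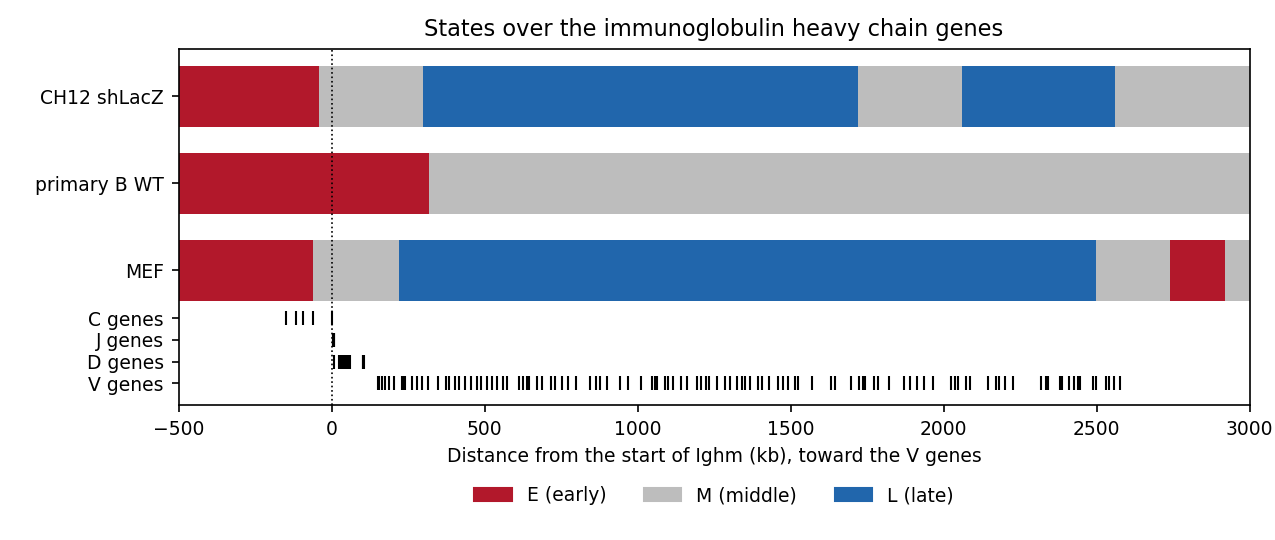
RT states (red E, grey M, blue L) over the immunoglobulin heavy chain genes in the 3 maps, by distance from the start of Ighm in kb, with annotated constant (C), J, D and V genes as ticks. The E domain reached 319 kb past Ighm in primary B cells and ended 40.9 kb before it in CH12 cells, and L covered 96 of 122 V region bins in CH12 cells, 0 in primary B cells and 114 in MEFs.

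Of the 704 protein-coding genes that start on the chromosome, 50.6% were in E in CH12 cells (46.9 to 54.2%), 54.4% in primary B cells (50.7 to 58.0%) and 55.3% in MEFs (51.6 to 58.9%). L held 15.6%, 9.52% and 6.82%. Between the B cell maps, 571 starts kept their state. Primary B cells were earlier at 100 starts, 14.2% against 18.8% of protein-coding starts on all chromosomes, and later at 33, 4.69% against 2.75%. The later ones were 31 starts that went from E to M and 2 from M to L. The choice of the chromosome used the E states of both B cell maps, so nothing is read from these shares. The chromosome had 5.81 protein-coding starts per Mb, the second lowest density of the autosomes.

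Listed genes were counted by their function, 215 in 8 lists, to be read beside the 704 protein-coding starts, of which 356 were E in CH12 cells, 383 in primary B cells and 389 in MEFs. Among 26 B cell and immune regulators, 19 were E in CH12 cells, 20 in primary B cells and 20 in MEFs, and 17 had the same state in all 3. Id2, an inhibitor of bHLH factors, was E in both B cell maps and M in MEFs. Its start lay only 0.957 kb from a domain edge of the MEF map, less than the 20 kb bin width. Rsad2 and Cmpk2 were L in CH12 cells and M in the others, and Ahr was E in primary B cells only. Prkch, a protein kinase C, was M in primary B cells and E in the others, and Hif1a was M in CH12 cells and E in the others. Of the other 3 members whose state differed, Gpr65, a proton-sensing receptor, was E in both B cell maps and M in MEFs, while Bcl11b and Yy1, a zinc finger factor, were M in both B cell maps and E in MEFs.

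Housekeeping genes were counted in a pair of lists. Of 38 proteasome, translation and chaperone genes, 28 were E in CH12 cells, 35 in primary B cells and 34 in MEFs, and 0 were L in any map. Primary B cells were earlier at 8 of them, beside 14.2% of all protein-coding starts on the chromosome and 18.8% on all chromosomes. They were later at 1, Atxn3, a deubiquitinase. The earlier ones include Srp54a, Srp54b and Srp54c, for a subunit of the signal recognition particle, Sec23a, Trappc6b and Pnn, a splicing-related gene. The Srp54 genes lay in a single run of 180 kb, and Sec23a, Trappc6b and Pnn in another of 280 kb. Both runs were shorter than the 300 kb smoothing span, and genes within a run are not separate changes. Of 21 replication, repair and cell cycle genes, 12 were E in CH12 cells, 11 in primary B cells and 12 in MEFs, a share near that of all protein-coding starts, with 0 in L. Rrm2, the small subunit of ribonucleotide reductase, was M in CH12 cells and E in the others, while Ppm1a and Mnat1 were E in CH12 cells and M in primary B cells. Timm9, for a mitochondrial import chaperone, was E in MEFs only, and Smek1, a regulatory subunit of protein phosphatase 4, and Papola, a poly(A) polymerase, were M in MEFs only. Pole2, a subunit of DNA polymerase epsilon, Mlh3, a mismatch repair gene, and Xrcc3, a homologous recombination gene, were E in all maps.

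Developmental and neuronal genes were found in all states. Of 27 genes in the list of developmental transcription factors, L held 12 in CH12 cells, 8 in primary B cells and 5 in MEFs, and 7 kept a single state. These counts include Hdac9, Twistnb and Hhipl1, which do not encode such factors and each of which differed between maps. Osr1, Sox11 and Myt1l were L in both B cell maps and M in MEFs, and Mycn was L in CH12 cells and M in the others. Grhl1 was E in primary B cells only, and Klf11 was M in CH12 cells and E in the others. The starts of Grhl1 and Myt1l lay 2.85 and 13.2 kb from a domain edge of the MEF map, less than the 20 kb bin width. Of 25 neuronal and adhesion gene models (Mdga2 has 2), L held 14, 12 and 8. Kcnf1, a potassium channel subunit, was M in primary B cells and E in the others, Sntg2 and Prkd1 were L in both B cell maps and M in MEFs, and Slc25a21 and Mipol1 were L in CH12 cells and M in the others. Ralgapa1, a subunit of a Ral GTPase-activating complex, was M in both B cell maps and E in MEFs.

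Both gene clusters were wholly M in primary B cells, but not in CH12 cells. All 10 genes listed for the Dlk1-Dio3 imprinted cluster and its flank, at 110098240 to 111519307, were M in primary B cells. Wars, Wdr25 and Begain lie before Dlk1, which starts at 110691033. In CH12 cells 5 of them were L, namely Dlk1, Meg3, Rtl1, Rian and Mirg, and in MEFs Dio3 and Dio3os were E. Of the 27 serpin genes and pseudogenes at 104854885 to 105652539, which encode secreted protease inhibitors, all were M in primary B cells and in MEFs, and 23 were M in CH12 cells. The 4 that were L in CH12 cells were Serpina1f, Serpina1b, Serpina1d and Serpina1a.

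**Figure D5:**
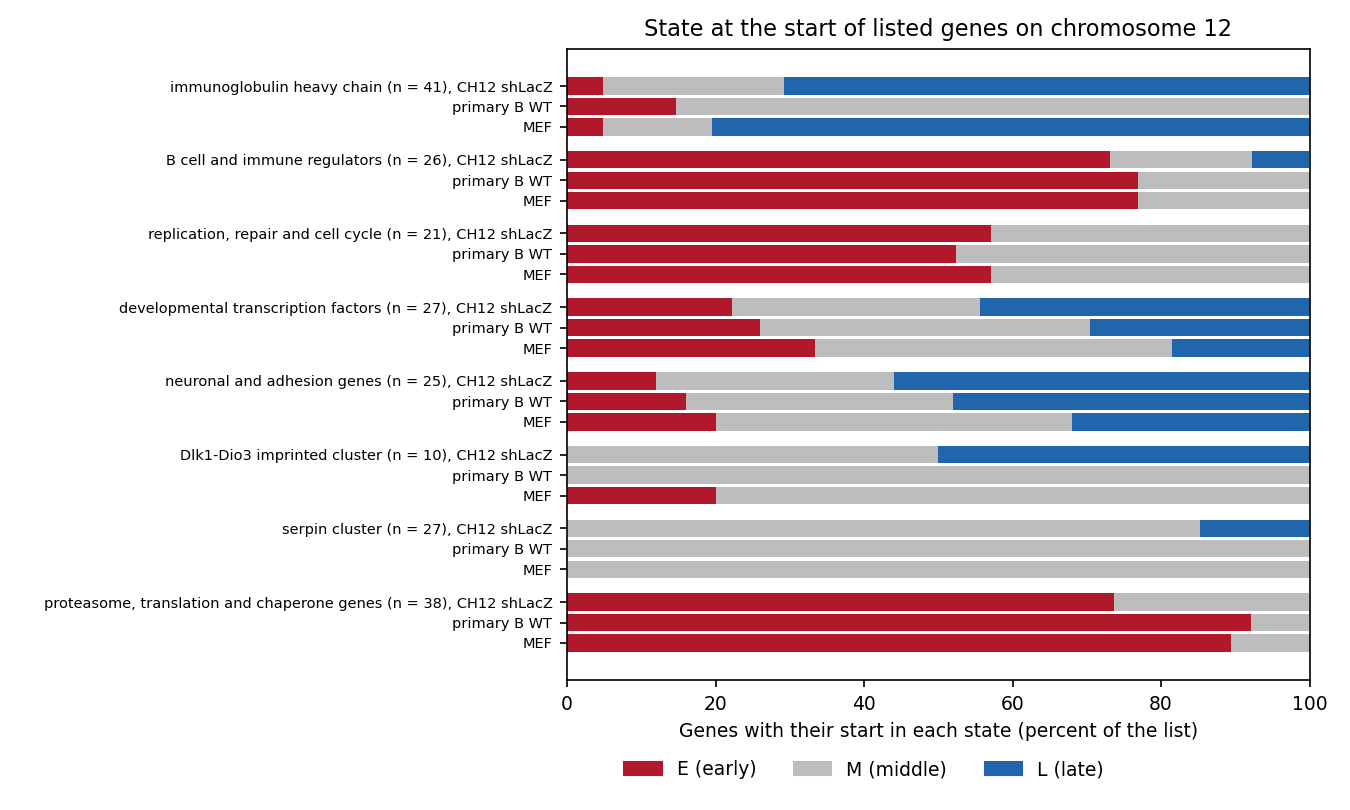
Percent of the genes of each list with their start in E (red), M (grey) or L (blue), with a bar for each of the 3 maps and the number of genes beside the list's name. The heavy chain list was L at 29 of 41 genes in CH12 cells, 0 in primary B cells and 33 in MEFs, while the 38 proteasome, translation and chaperone genes were in E or M in each map.

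Promoters in early DNA held more CpG. A ratio of observed over expected CpG above 0.6 was found in 57.7% of the 704 promoters (54.0 to 61.3%) and in 45.2% of 22350 on all chromosomes. In CH12 cells the share was 66.6% in E (61.5 to 71.3%), 54.2% in M (47.9 to 60.4%) and 36.4% in L (28.0 to 45.7%). In primary B cells it was 65.3%, 51.2% and 38.8%, and in MEFs 67.9%, 46.4% and 37.5%. The order E, M, L held in each map. The intervals of M and L overlapped in primary B cells (45.1 to 57.3% and 28.0 to 50.8%) and in MEFs (40.6 to 52.4% and 25.2 to 51.6%). Promoters with the same state in all maps passed at 67.0% in E, 47.4% in M and 47.1% in L, so M and L hardly differed there. Among promoters that were L in CH12 cells and M in primary B cells, 14 of 42 passed the ratio (33.3%, 21.0 to 48.4%), a share near that of L promoters. These 42 are among the 110 L promoters of CH12 cells, so the nearness is partly built in. Those that were M in CH12 cells and E in primary B cells passed in 38 of 55 (69.1%, 56.0 to 79.7%), and those that were E in CH12 cells and M in primary B cells in 25 of 31 (80.6%, 63.7 to 90.8%), a share whose interval overlapped that of E promoters. These 31 are likewise among the 356 E promoters of CH12 cells.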

How the data were processed

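Early and late S phase fractions of BrdU-labelled mouse cells were sequenced. Per the study's methods, the authors trimmed reads with Trim Galore 0.6.5, aligned them to mm9 with BWA 0.7.17, kept unique alignments with SAMtools 1.9, merged replicates and removed duplicates. They smoothed the log2 early over late ratio by loess over 300 kb, in 20 kb bins, which blurs edges. They then segmented it into 3 states by a hidden Markov model. The merging of replicates removed replicate spread. The deposited maps hold domain positions and a state number, with no RT value and no read depth. State numbers were named by the rule for the maps: 2 E, 1 M and 0 L in both B cell maps, and 0 E, 2 M and 1 L in the MEF map. The methods give the segmentation for all conditions, and the steps before it for the study's own reads; the steps before it for the MEF reads are not given in the sources used here. The RT values that separate states can differ between maps.

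All 3 maps ended at 121257530, which is where chromosome 12 ends in NCBIM37 (mm9). Domains were laid on 6063 bins of 20 kb, of which 178 were wholly unknown bases and 150 had no state in primary B cells. Genes came from GENCODE M1 (1324 on the chromosome, 704 protein-coding) and were placed by their start on their own strand. Shares have Wilson 95% intervals. Median lengths have 95% intervals from order statistics. Edges were matched within 100 kb. The CpG ratio was the number of CG pairs times the window length, over the product of C and G counts.

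Named were the longest E, M and L domain of each map, E domains of at least 1000 kb, the 3 longest runs of each kind of difference, the longest runs of E and of L in all maps, and 2 to 6 genes per list, first those whose state differed. Other genes named as examples were picked after their values were seen. The members, lists and rules were chosen with earlier results of these data known. List entries not found on the chromosome by symbol were left out. The functions were tested on a simulated map of 6063 bins, and 8 of 8 checks returned the known value. The other 5 groups of the series were not analysed here. Shares and intervals were computed with scipy 1.17.1 and pandas 2.3.3 on numpy 2.4.6 (Python 3.11.15), and figures were drawn with matplotlib 3.10.9. Some named genes are not reported here.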

Additional observations from a re-analysis of the deposited data

How the results depend on the processing

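No paired analysis was possible because each map joins its replicates. Of the values recomputed under an alternative, 82 stayed close to the reported value (within its interval, or within 1.5 times for a count), 33 moved and 1 reversed. The 82 include values that had little or no room to move. Leaving out the first 3 Mb removed none of the bins compared. A minimum domain length of 100 kb kept 118 of 119 MEF domains and all domains of the B cell maps. Leaving out bins within 100 kb of an edge reversed the early-share difference, to -0.17 points, and moved the shares of CH12 cells to 25.8% E, 16.3% M and 57.9% L, of primary B cells to 25.5% M and 49.2% L, and of MEFs to 26.2% E, 28.9% M and 44.9% L. It also raised agreement to 88.5% for CH12 and primary B cells, 75.3% for CH12 cells and MEFs, 79.1% for primary B cells and MEFs, and 73.5% for all 3 maps. On every autosome recomputed in this way, an alternative added after seeing the data, the signed difference on chromosome 12 was again the lowest, but chromosome 17, at 0.094 points, had the smallest in size. With tolerances of 40 and 200 kb, E edges of CH12 cells were found in primary B cells at 35.4% and 70.8%, and L edges at 15.8% and 55.3%. In MEFs, E edges of CH12 cells were found at 10.4% and 47.9%, L edges of CH12 cells at 7.89% and 35.5%, E edges of primary B cells at 15.0% and 43.3%, and L edges of primary B cells at 16.7% and 51.9%. Among domains of at least 300 kb the median M length in CH12 cells was 560 kb. Counting all gene types, which brings in the heavy chain segments, put 37.4% of the CH12 starts in E and 32.0% in L, while primary B cells had 43.3% E, 44.3% M and 12.5% L, and MEFs 40.6% E and 17.9% L. Runs of at least 300 kb numbered 20 of 120. With 1 map per cell type, a read depth that is unknown here and a smoothing span of 300 kb, differences shorter than that span and small shifts of edges are the least certain.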
